A study of Mus musculus with 6 samples.

Results

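Septin9 was represented in the deposited methylation tables by 12 cytosines, all more methylated in LSK cells from Tet1 KO mice than in those from WT mice. Their rows carry the gene name 9-Sep, a date into which the older symbol had been converted, and they were chosen by that stored name out of the 6756 cytosines of both tables. The Entrez identifier 53860 found the same 12 rows, all on chromosome 11, and RefSeq gives that identifier the symbol Septin9. The hypermethylated cytosines number 6270 and the hypomethylated ones 486, and Septin9 had 12 rows in the former and 0 in the latter.

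The study compared 3 WT samples with 3 Tet1 KO samples of LSK cells, a population without lineage markers and with Sca-1 and Kit on its surface that includes blood stem and progenitor cells. The cells were flow sorted from bone marrow of mice aged 6 months, of the strain written CD57BL/6 in the labels, and their DNA was read by enhanced reduced representation bisulfite sequencing, an assay of CpG-rich fragments. The labels do not say how the Tet1 allele was made, whether the loss was limited to blood cells or whether each sample was a separate mouse. The authors' deposited tables give 1 methylation difference per cytosine over all samples, knockout minus wild type by the names and signs of the tables, and keep differences of at least 25 percentage points. Values per sample, read depth and p-values were not used here, so no difference below could be set against the spread between replicates and the depth behind it is unknown. The members were selected on tables of cytosines past that threshold, so their number, direction and size are a description and were not tested.

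Septins are GTP-binding proteins that assemble into filaments at the cell cortex and at the site of cell division, and septin 9 is a subunit that also binds microtubules and bundles actin. The gene is transcribed from several alternative starts, which give proteins with different amino termini. Human SEPT9 was found as a partner of KMT2A (MLL) in leukaemia fusion genes, as was TET1. Its mouse counterpart was also named Sint1, after a viral integration site in T cell lymphomas. TET1 oxidises 5-methylcytosine, and bisulfite treatment does not separate 5-methylcytosine from 5-hydroxymethylcytosine.

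The distances in the authors' deposited table placed 4 Septin9 starts on the forward strand of chromosome 11 (mm9), at 117060975, 117127560, 117193029 and 117193627. They belong to the RefSeq transcripts NM_001113486, NM_001113487, NM_017380 and NM_001113488. RefSeq's promoter table for GRCm38.p6 holds 4 Septin9 promoters, and the distances between their starts (66585, 132054 and 132652 bp from the first) were the same as in mm9 for all 4. The first and second are shown because the largest group of changed cytosines lay between them. The 250 bases before each start are printed 5′ to 3′ on the forward strand, with CpG dinucleotides in capitals, at chr11:117199411-117199660 for the first and chr11:117265996-117266245 for the second (GRCm38.p6, a build other than that of the cytosines).
First start: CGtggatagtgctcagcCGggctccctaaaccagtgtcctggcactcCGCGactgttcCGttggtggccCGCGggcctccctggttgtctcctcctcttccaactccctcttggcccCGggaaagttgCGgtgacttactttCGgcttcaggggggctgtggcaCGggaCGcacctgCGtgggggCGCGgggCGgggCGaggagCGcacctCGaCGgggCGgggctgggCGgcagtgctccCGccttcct
Second start: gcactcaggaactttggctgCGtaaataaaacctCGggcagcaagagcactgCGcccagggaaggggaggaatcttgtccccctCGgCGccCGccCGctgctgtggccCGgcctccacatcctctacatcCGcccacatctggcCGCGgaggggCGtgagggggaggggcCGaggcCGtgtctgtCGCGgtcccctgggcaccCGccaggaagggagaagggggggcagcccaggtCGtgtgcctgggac

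These stretches hold 23 and 18 CpGs. In windows of 300 bases, 250 before and 50 after the start, the first promoter held 31 CpGs, the second 18, the third 5 and the fourth 15, against a median of 7 over 32851 promoters of the table. CCGG, the sequence cut by the MspI enzyme commonly used in this kind of assay, reads the same on both strands and contains a CpG. It occurred 3 times in the window of the first start and 1 time in each of the others, and at least 1 time in 52.8% of all promoter windows. No listed cytosine lay in any of the 4 promoters: the nearest was 32702 bp from the first start, 2419 bp from the second, 13726 bp from the third and 14324 bp from the fourth. Cytosines outside the lists were not analysed here, so this does not show whether the promoters differed by less than 25 percentage points or were not read.

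Of the 12 cytosines, 8 lay in intron 2 of 11 of the long transcript, between the first and second starts. The strongest were a pair on the forward strand 11 bp apart, at 117093677 and 117093688 (mm9), 32702 and 32713 bp downstream of the first start. The authors' deposited table gives them differences of 68.5 and 53.5 percentage points. The former is the highest value of the gene and exceeds 95.0% of all hypermethylated cytosines.

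After a gap of 651 bp came a pair on the reverse strand, 117094339 and 117094350, with listed differences of 28.0 and 35.7 percentage points. A forward-strand cytosine followed at 117094434, to which the authors' deposited table gives 39.9 percentage points. These 5 cytosines span 758 bp and form the region of the gene with the most sites when cytosines less than 1000 bp apart are joined. Within it the first pair stood above the other 3, which did not reach 40 percentage points.

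The second region of this intron began 2271 bp farther on. It held a forward-strand cytosine at 117096705 and a reverse-strand cytosine at 117096878, for which the authors' deposited table gives 50.3 and 36.9 percentage points. A single forward-strand cytosine at 117103613, another 6735 bp away, had the lowest difference of the gene, 26.8 percentage points, just inside the threshold. Over the 8 cytosines of the intron the median was 38.4 percentage points, and they thus held both the highest and the lowest values of Septin9.

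**Figure D1:**
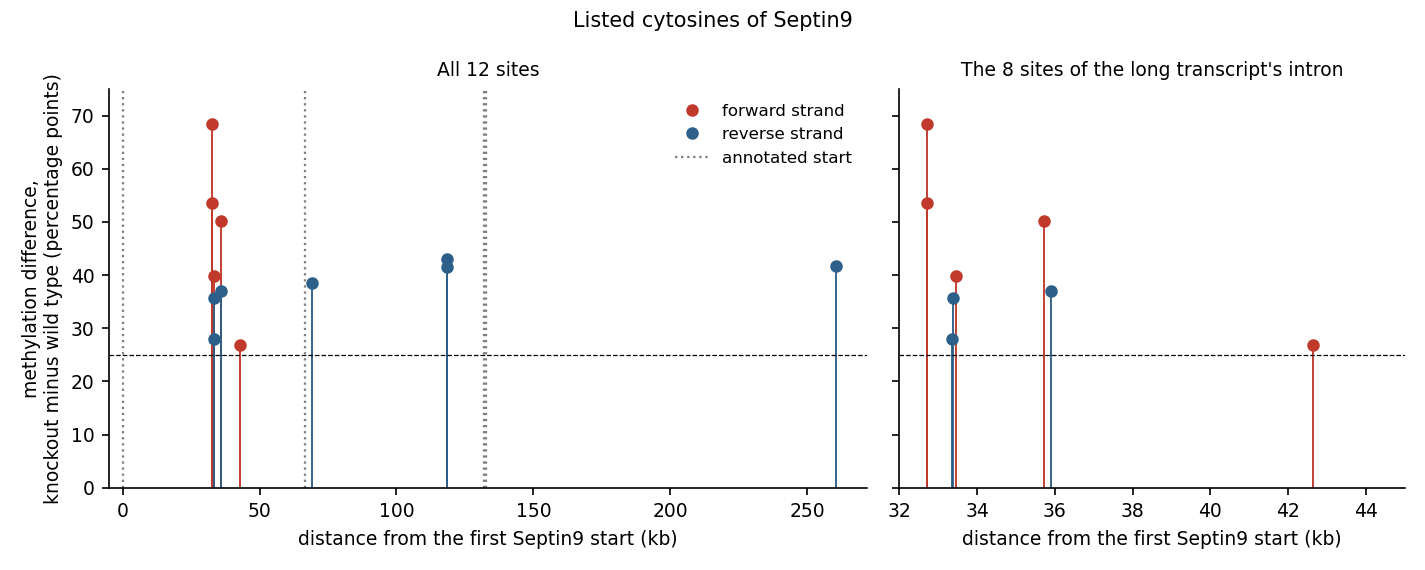
Methylation difference of each Septin9 cytosine (vertical axis, percentage points, knockout minus wild type) against its distance from the first annotated start (horizontal axis, kb), for all 12 sites on the left and for the 8 sites of intron 2 of the long transcript on the right. Red points are forward-strand and blue points reverse-strand cytosines, grey dotted lines mark the 4 starts (the third and the fourth nearly coincide), and the black dashed line marks the threshold of 25 percentage points. The right panel holds both the highest value, 68.5, and the lowest, 26.8.

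Downstream of the second start, 3 cytosines lay in introns of the transcript NM_001113487, all on the reverse strand. The site in its intron 1 of 10, at 117129979, was the nearest of all to a start, at 2419 bp, and the authors' deposited table gives it 38.5 percentage points. In its intron 2 of 10, the cytosines 117179294 and 117179303 lay 9 bp apart, with listed differences of 41.6 and 43.0 percentage points. They were 13735 and 13726 bp upstream of the third start. These 3 values lay inside the range of the 8 cytosines upstream of the second start. The annotation names 1 transcript per cytosine. Whether these introns are apart from those of the long transcript is therefore not shown.

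The remaining cytosine, at 117321653, was annotated as intergenic, with a listed difference of 41.7 percentage points. It lay 260678 bp from the first start, whereas the Septin9 gene of RefSeq (GRCm38.p6) is 162665 bp long, and 128026 bp from the fourth start. It is assigned to Septin9 because the files name the gene with the nearest start, so membership in the gene rests here on distance alone. The other 11 lay in introns of Septin9's own transcripts, over 85626 bp.

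Taken by strand, the 5 forward-strand cytosines ranged from 26.8 to 68.5 percentage points (median 50.3) and the 7 on the reverse strand from 28.0 to 43.0 (median 38.5) in the authors' deposited table. The ranges overlap, and all 5 forward-strand cytosines were in the long transcript's intron. No CpG of Septin9 was listed on both strands, and across all hypermethylated cytosines 114 of 6270 (1.82%) had the partner on the opposite strand listed too. Reads were 50 bases long per the labels, so cytosines on the same strand closer than that can come from the same reads. This applies to 3 pairs of Septin9, whose members differed by 15.0, 7.65 and 1.36 percentage points, and leaves 9 separate stretches. Over 1183 pairs of neighbouring cytosines of the hypermethylated table at most 20 bp apart on the same strand, the median gap was 7.49 percentage points (quartiles 3.25 and 13.5).

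The size of the differences at Septin9 was close to the middle of the list. The 12 values had a median of 40.8 percentage points and a mean of 42.0 ± 11.3 (SD over sites, not over replicates), and all hypermethylated cytosines had a median of 41.1 and a mean of 43.5 ± 13.1. At least 40 percentage points were reached by 6 of the 12 cytosines (50.0%), against 53.4% of the list. By annotation, introns held 11 of 12 (91.7%) against 31.3% of the hypermethylated list, exons 0 against 19.6%, promoters 0 against 11.2% and intergenic sequence 1 of 12 against 36.1%. None carried a CpG island or repeat label, which 4.29% and 7.11% of the list did. At those shares, 12 cytosines would hold few of either. More than 10000 bp from the nearest start lay 11 of the 12, against 45.2% of the list. These shares were not tested, since neighbouring cytosines are not independent.

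**Figure D2:**
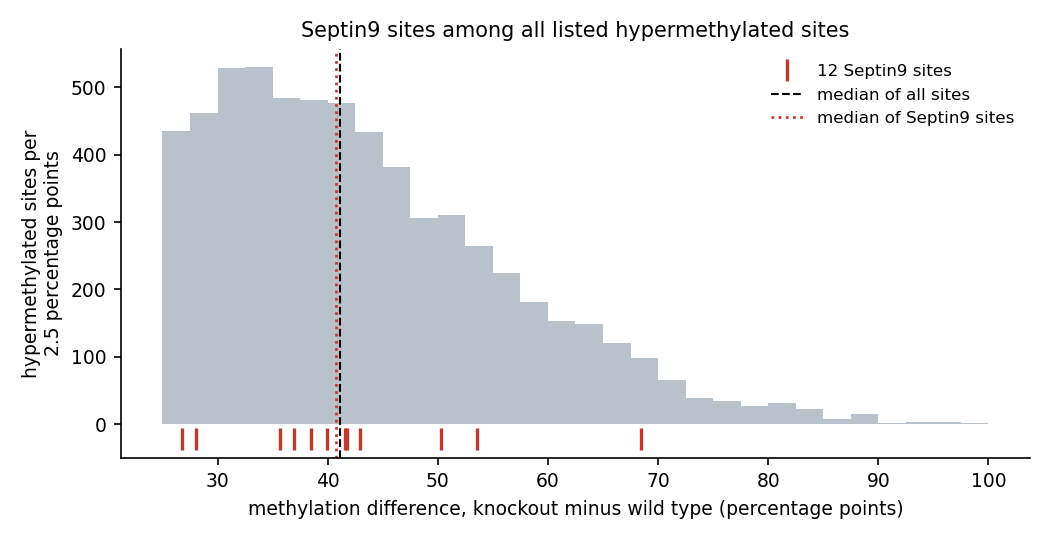
Number of hypermethylated cytosines (vertical axis) by methylation difference in steps of 2.5 percentage points (horizontal axis), grey bars, with the 12 Septin9 cytosines as red ticks under the axis. The medians of Septin9 (red dotted line, 40.8) and of all 6270 cytosines (black dashed line, 41.1) nearly coincide, and a single Septin9 cytosine lies above 60.

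Few genes had as many listed cytosines. A gene with any hypermethylated cytosine had a median of 1, and 17 of 3018 such genes (0.563%) had 12 or more. Genes with at least as many as Septin9 numbered 79 when a difference of 40 percentage points was required and 86 on the forward strand alone. Septin9 shared the count of 12 with 8 genes, and 8 genes had more, up to 17. The next genes above have 13 and the next below 11. When cytosines less than 1000 bp apart were joined, Septin9 had 6 regions, as many as Lhx5 and more than the other 15 of the 17 genes. Among all listed genes, 6 had at least 6 regions. The outermost Septin9 cytosines were 227976 bp apart, against a median of 31632 bp (range 183 to 327493 bp) for the other 16. Of those, Adgrb1 and Skor2 reached farther. Both the regions and the span of Septin9 include the intergenic cytosine assigned by distance alone. Without it Septin9 had 5 regions, as many as Pax7 and fewer than Lhx5, over 85626 bp. E130006D01Rik (206497 bp), Lhx5 (152341 bp), Pde4dip (100991 bp) and Pax7 (90445 bp) then also reached farther. These genes kept their own intergenic cytosines, so this comparison is not like for like. Such cytosines were 91.7% of those of Lhx5 and of E130006D01Rik, 61.5% for Pax7 and 0% for Pde4dip. Of the other 16 genes, 1 had most of its cytosines in introns. A higher median difference than that of Septin9 was seen in 15, the exception being Gm10421 (35.6 percentage points).

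**Figure D3:**
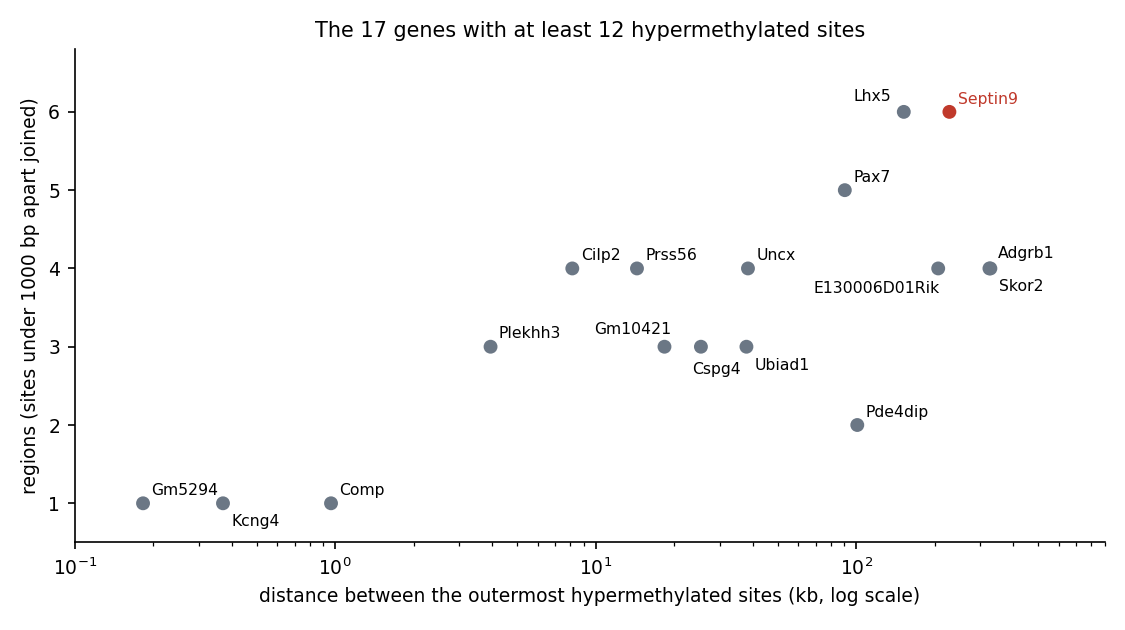
Regions of hypermethylated cytosines (vertical axis) against the distance between the outermost cytosines (horizontal axis, kb, log scale) for the 17 genes with at least 12 hypermethylated cytosines, 1 point per gene. Septin9 (red) and Lhx5 have 6 regions each, and Gm5294, Kcng4 and Comp have 1. The Septin9 point includes the intergenic cytosine, without which it has 5 regions over 85626 bp.

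Among the other 31 genes with at least 10 hypermethylated cytosines, the 3 most like Septin9 were Gm10421, Engase and Mxra7. Likeness was the Euclidean distance between the shares of cytosines in promoters, exons, introns, intergenic sequence and termination sites, which was 0.110, 0.118 and 0.118. Gm10421 had 14 cytosines, of which 13 lay in introns of Ptprn2, a phosphatase-like protein of secretory granules. Engase, which encodes a glycan-cleaving enzyme, was nearest to 11 cytosines in introns of Rbfox3, the gene of the neuronal RNA-binding protein NeuN. Mxra7 had 11 cytosines in its own intron, which the authors' deposited table gives 29.4 to 57.6 percentage points. Intronic annotation thus referred to the gene itself in Septin9 and Mxra7 and to another gene in Gm10421 and Engase.

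Mxra7 is also a neighbour of Septin9. Within 500 kb of a Septin9 cytosine, the authors' deposited tables list 37 cytosines of 6 genes, 36 of them hypermethylated. Over both lists, 6270 of 6756 cytosines were hypermethylated. On the upstream side were Mxra7, 420613 bp away, Mgat5b, a glycosyltransferase gene, with 7 cytosines between 116766870 and 116856077, and the long non-coding RNA gene Snhg20, with 2. Mgat5b had listed differences from 25.7 to 51.4 percentage points and Snhg20 had 49.2 and 52.0. The stretch between Snhg20 and the first Septin9 cytosine held no listed site over 140246 bp.

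On the downstream side, the last Septin9 cytosine was the intergenic one, itself 142350 bp after the Septin9 cytosine before it. The next listed cytosine lay 376150 bp farther on. It was the first of 2 nearest to Tk1, the thymidine kinase gene, at 35.9 and 37.2 percentage points by the authors' deposited table. Tha1, a threonine aldolase gene, followed with 2 hypermethylated cytosines (63.5 and 63.7 percentage points) and 1 hypomethylated cytosine (-45.6), the only loss in this window. The protein-coding genes next to Septin9 in the RefSeq order are Sec14l1 before it and Tnrc6c after it, and each was nearest to 0 listed cytosines.

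**Figure D4:**
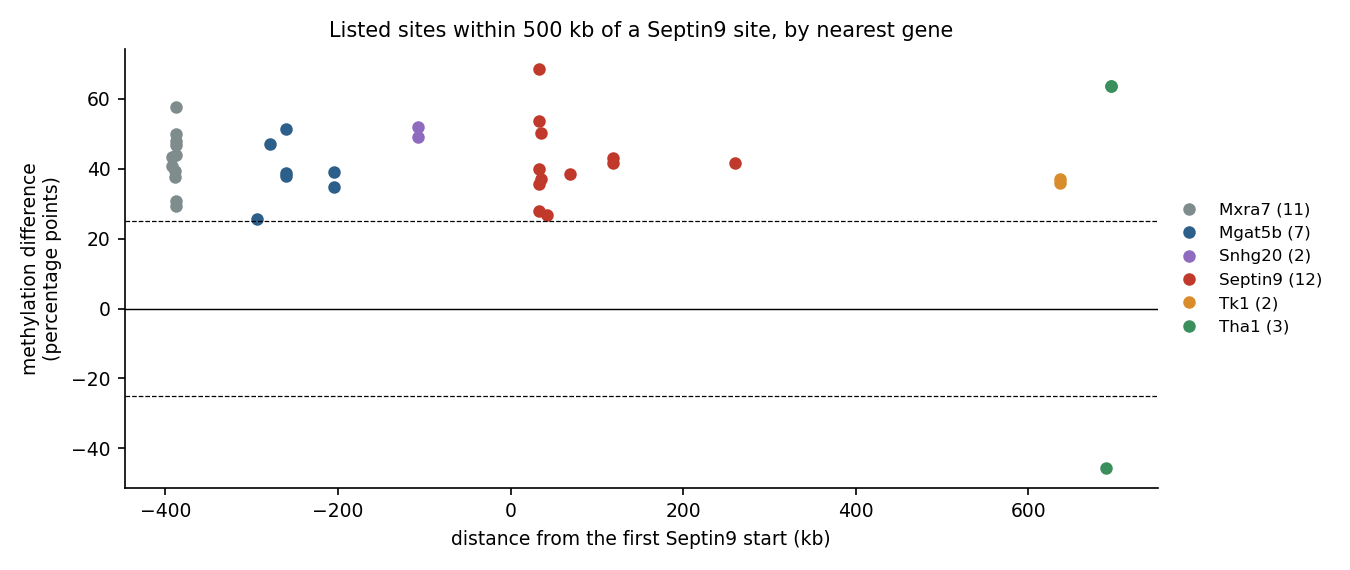
Methylation difference (vertical axis, percentage points, knockout minus wild type) of the 37 listed cytosines within 500 kb of a Septin9 cytosine, against distance from the first Septin9 start (horizontal axis, kb), coloured by nearest gene, with the number of cytosines in brackets. Dashed lines mark 25 percentage points in each direction. The nearest cytosine of another gene lies 140246 bp before the first Septin9 cytosine (red) and 376150 bp after the last, the intergenic one. The gap before that intergenic cytosine, within the 12 of Septin9, is 142350 bp. The hypomethylated cytosine of Tha1 lies below 0.

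No other septin gene was listed. Of the 12 other members of the family, Septin1 to Septin8, Septin10 to Septin12 and Septin14, 0 were nearest to a hypermethylated and 0 to a hypomethylated cytosine. Over 21900 protein-coding genes of the reference, 12.3% were nearest to a hypermethylated and 1.77% to a hypomethylated cytosine, so a list of this length would hold few listed genes at that rate. Of 16 genes of septin-binding or cytokinesis proteins, which include the CDC42 effectors of the Borg family, anillin (Anln) and rhotekin (Rtkn), 1 was listed (6.25%). That gene was Cit, which encodes citron kinase of the cleavage furrow, with 1 intergenic cytosine 45679 bp from its start, given 44.0 percentage points by the authors' deposited table.

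Kmt2a and genes whose human counterparts are its fusion partners were listed at about the rate of all genes. Without Septin9, 6 of 51 (11.8%) were nearest to a hypermethylated cytosine and 1 (1.96%) to a hypomethylated one, and each of these had 1 or 2 cytosines against 12 of Septin9. Kmt2a itself and Tet1 were not among them. Arhgap26 had 2 cytosines in an intergenic LTR repeat, given 41.5 and 35.6 percentage points by the authors' deposited table. Cep170b, whose product is related to a centrosomal protein, had 2 intergenic cytosines at 27.8 and 38.6 percentage points.

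Single intronic cytosines were listed for Aff3, a relative of the elongation factor gene Aff1, at 40.03 percentage points, for Gas7 at 38.1 and for Tnrc18 at 33.3 in the authors' deposited table. Foxo3, a forkhead transcription factor gene with a role in stem cell quiescence, had the only hypomethylated cytosine, in intron 2 of 3, given -36.4 percentage points by the authors' deposited table. Usp2, a ubiquitin protease gene singled out after its value was seen, had 1 promoter cytosine 727 bp from its start, at 83.5 percentage points, the highest listed value among these genes, Septin9 included.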

How the data were processed

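The submitters' processing notes name Bismark, with no version or role, and the build is mm9 per the file headers. How the authors called differential methylation, combined replicates or filtered on coverage is not given in the sources used here. All of the authors' deposited values are methylation differences as a percent scale (percentage points) per cytosine, kept from 25 upward in size, and distances in bp to the nearest annotated start. Neither table has a column for a single sample, so the planned model of replicate counts was not run and the precision of single differences is unknown.

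Positions are those of the files. The sign of a distance follows the strand of the cytosine, and starts were computed accordingly. Gene names were taken by Entrez identifier from RefSeq (GRCm38.p6), which matched 99.8% of cytosines, and promoter sequences from its promoter table. Regions were made by joining like-directed cytosines at gaps under 1000 bp. No test was run. Joining and feature labels were tested on simulated data with 200 planted regions.

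The named genes were Septin9, genes listed within 500 kb of it, listed members of 3 gene lists (all for septins, otherwise the 6 with most cytosines, besides Usp2, which was added after its value was seen) and the 3 genes with the nearest feature shares. The members, lists and rules were chosen with earlier results of these data known. Alternatives were a difference of at least 40 percentage points, forward-strand cytosines alone, membership by annotated transcript, joining below 200 or 5000 bp and ranking by regions. Membership by Entrez identifier and counting same-strand stretches under 50 bp once were chosen after seeing the data. Python 3.11.15, pandas 2.3.3, numpy 2.4.6 and matplotlib 3.10.9 were used.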

Additional observations from a re-analysis of the deposited data

How the results depend on the processing

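No paired analysis was possible because the tables hold no values per sample, and for the same reason no replicate could be left out. At a difference of at least 40 percentage points Septin9 had 6 cytosines, and 79 genes had at least as many as it did, against 17 on the full list. With forward-strand cytosines alone it had 5 cytosines in 3 regions, and 86 genes had at least as many. Ranked by regions, 6 genes had at least as many as its 6. The place of Septin9 among the most listed genes thus changed with both settings, which keep fewer cytosines by construction. Its median difference lay between 39.9 and 50.3 percentage points under the alternatives, against 40.8 on the full list. The highest was that of forward-strand cytosines alone. The median of 46.6 at a difference of at least 40 percentage points is raised by construction. At 40 percentage points 4 regions were left. Other settings moved the counts less: 11 cytosines by annotated transcript, 9 same-strand stretches, 12 by Entrez identifier, and 5 to 7 regions. Depth is unknown, so a difference near 25 percentage points cannot be told from one just under it.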

Other observations

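Septin9 is a long gene, with 5.91% of the reference's protein-coding genes longer than it. Of 1707 protein-coding genes between 100000 and 250000 bp, 323 (18.9%) were nearest to a hypermethylated cytosine, against 12.3% of all protein-coding genes. Of the 323, 2 were nearest to at least 12, Septin9 and Pde4dip, beside 17 of 3018 (0.563%) among listed genes of any length and type. At least 5 were nearest to 28 of the 1707 genes (1.64%). The share over all genes was not computed for at least 5, so this count is not set against a general rate. In Pde4dip, which encodes a centrosome and Golgi protein, all 12 lay in exons, in 2 regions, whereas Septin9 had 0 in exons and 6 regions. This length class was chosen after the values were seen.

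The conversion of symbols into dates touched 3 other genes, Marchf4 and Marchf5 with 1 hypermethylated cytosine each and Marchf9 with 1 hypomethylated cytosine. Septin9 thus held 12 of the 15 rows affected, and a search of the gene name column for Septin9 or Sept9 finds none of them.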
